A study of Rattus norvegicus with 20 samples.

Results

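Collagen chain genes were taken as every probe set whose gene name in the platform annotation had the form Col, a number, a and a number. The rule found 20 genes with 1 probe set each, among 15037 named genes on 15049 probe sets and 24871 probe sets in all. A list of 45 chain genes drawn up by collagen class held these 20, and the 25 others had no probe set of that name here and were not analysed. The measured genes were 8 of 11 fibrillar chains, 3 of 10 fibril-associated chains with interrupted triple helices (FACIT), 2 of 6 chains of the basement membrane network, 1 of 3 short chains, 1 of 6 beaded filament chains, 2 of 4 transmembrane chains, both multiplexins, and Col26a1 of 2 others. The 1 anchoring fibril chain of the list, Col7a1, was not among them.

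Vocal folds of 20 male Sprague-Dawley rats were profiled with 1 array per animal, in an uninjured control group and in injured groups collected after 1, 4 or 8 weeks, with 5 rats per group. At 14 to 16 weeks of age, the injured rats had the lamina propria of the fold stripped off the underlying thyroarytenoid muscle. Injury was to 1 fold or to both according to the methods, whereas dissection was of both folds according to the labels. The labels do not give the age at tissue collection, so time after injury and age cannot be told apart, and no sham-operated group is among the samples.

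Collagens are proteins of 3 chains wound into a triple helix, and most types take their name from their own set of chain genes. Fibrillar collagens carry the tensile strength of connective tissue, network collagens lie in basement membranes, and FACIT and beaded filament collagens bind fibrils to one another or to cells. In the vocal fold, the collagen of the lamina propria is known to bear on how the mucosa vibrates, and scar after injury is known for altered collagen.

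The deposited values are log2 signals, so a difference of 1 is a 2-fold change. Signals of different probe sets are not on a common scale, so genes are not ranked by level here. Where a signal is set beside background sets, or 1 chain's signal is taken from another's within an array, the value serves only for comparison between groups or as a limit on signal, not as a measure of abundance. Bulk tissue was measured, so fewer cells of a type and less RNA per cell cannot be told apart. Differences were tested with limma in 1 fit of the 4 groups, with p-values adjusted by Benjamini-Hochberg over all 15049 named probe sets within a comparison and 0.05 as the threshold. The arrays of a group are of different animals, and their number limits the precision.

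The 250 bases before the annotated start are shown for 5 members that the results turn on: Col8a1 had the largest rise at 1 week, Col5a1 the smallest adjusted p there, Col1a2 was near its control level by 8 weeks, and Col4a1 and Col4a4 are basement membrane chains of which 1 rose. The sequences are RefSeq windows of the rat assembly GRCr8, written 5′ to 3′ on the strand of the gene, and capitals mark matches to any of 5 motifs searched on both strands. These were the CCAAT box, the TATA box in the form TATAAA, the GC box as GGGCGG, the palindromic SMAD element GTCTAGAC and the letters CAGACA of the SMAD-binding CAGA box, and no motif is part of another.
Col8a1, chr11:56246532-56246781, plus strand: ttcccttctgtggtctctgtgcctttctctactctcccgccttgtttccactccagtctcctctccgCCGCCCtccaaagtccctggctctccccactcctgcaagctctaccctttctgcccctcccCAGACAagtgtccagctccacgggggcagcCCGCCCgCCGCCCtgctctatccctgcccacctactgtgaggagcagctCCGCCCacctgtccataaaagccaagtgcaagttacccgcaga
Col5a1, chr3:31606630-31606879, plus strand: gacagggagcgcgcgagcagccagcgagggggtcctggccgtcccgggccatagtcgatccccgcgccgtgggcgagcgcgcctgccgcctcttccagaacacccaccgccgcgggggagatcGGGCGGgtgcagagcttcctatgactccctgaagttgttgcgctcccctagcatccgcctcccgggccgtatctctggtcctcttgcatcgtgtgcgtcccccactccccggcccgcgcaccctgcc
Col1a2, chr4:33518307-33518556, plus strand: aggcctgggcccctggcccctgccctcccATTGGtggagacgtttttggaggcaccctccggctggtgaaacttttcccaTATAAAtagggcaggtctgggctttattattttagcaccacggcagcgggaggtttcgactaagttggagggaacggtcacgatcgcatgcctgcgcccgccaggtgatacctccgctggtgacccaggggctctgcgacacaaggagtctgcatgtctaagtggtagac
Col4a1, chr16:84885347-84885596, plus strand: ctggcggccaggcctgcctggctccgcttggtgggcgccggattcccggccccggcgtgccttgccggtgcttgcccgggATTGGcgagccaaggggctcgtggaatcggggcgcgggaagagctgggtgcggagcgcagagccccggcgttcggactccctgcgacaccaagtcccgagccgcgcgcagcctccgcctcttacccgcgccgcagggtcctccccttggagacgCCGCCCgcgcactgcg
Col4a4, chr9:91323578-91323827, minus strand: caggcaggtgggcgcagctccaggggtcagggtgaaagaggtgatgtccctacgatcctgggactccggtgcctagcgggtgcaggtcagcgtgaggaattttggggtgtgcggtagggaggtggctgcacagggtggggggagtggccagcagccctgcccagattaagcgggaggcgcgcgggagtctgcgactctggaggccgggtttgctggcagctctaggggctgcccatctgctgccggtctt

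Windows were matched for 15 of the 20 members, and Col14a1, Col1a1, Col2a1, Col3a1 and Col6a2 had none. GGGCGG was in 8 of the 15 windows and in 32.4% of 27457 promoter windows of the same length. The Col8a1 window held it at 4 places on the minus strand, along with CAGACA, and the Col5a1 window held it once. CCAAT was in 4 of 15, against 34.3% of all windows, and in the Col1a2 and Col4a1 windows it lay on the minus strand, 221 and 170 bases before the start. TATAAA was in the windows of Col1a2 and Col13a1, against 13.1% of all. CAGACA was in those of Col8a1 and Col9a2, against 16.9%, and GTCTAGAC in none, against 0.186%. The Col4a4 window held none of the 5 motifs. In the same annotation Col4a1 and Col4a2 are transcribed away from each other from starts 77 bases apart, and Col4a3 and Col4a4 from starts 413 bases apart. These are matches of letters in fixed windows, and neither binding nor promoter activity was measured.

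At 1 week after injury, 18 of the 20 collagen chain genes were higher than in control and 0 were lower, against 11.2% of all tested probe sets called higher and 10.2% called lower. The exceptions were Col15a1 and Col4a4. The members' log2 fold changes ranged from -0.03 to 1.86 with a median of 1.03, and the median over all tested probe sets was 0.02. For 16 members all 5 injured animals lay above all 5 controls, which 8.21% of all tested probe sets did. The mean was highest at 1 week for 19 members, all but Col4a4, and lowest in control for 18, all but Col4a4 and Col15a1. The F statistic over the 4 groups passed the threshold for 17 members, against 15.4% of all tested probe sets.

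At 4 weeks 11 members were still higher than in control and 0 were lower, against 7.52% of all tested probe sets called higher and 5.46% called lower, and 7 members did not overlap with control, against 6.04%. At 8 weeks 11 were higher and 0 lower, against 6.96% and 4.65%, and 8 did not overlap with control, against 5.93%. The medians of the members' changes were 0.49 at 4 weeks and 0.57 at 8 weeks, beside 0.04 over all tested probe sets at each time. These comparisons share the same control arrays. Without control replicate 2 the count at 4 weeks was 6 and at 8 weeks 7, beside 1267 and 1127 of all tested probe sets called in either direction. The count at 4 weeks was 7 without control replicate 3, 6 without 4-week replicate 3 and 7 without 4-week replicate 4. Of all tested probe sets 2599, 1556 and 1704 were called in those fits. With all arrays 1952 were called at 4 weeks and 1748 at 8 weeks. The members called with every single array left out in turn were 17 of 18 at 1 week. At 4 weeks they were 6 of 11 (Col11a2, Col18a1, Col1a1, Col5a1, Col6a2 and Col9a2). At 8 weeks they were 7 of 11 (Col11a2, Col18a1, Col23a1, Col2a1, Col5a1, Col6a2 and Col9a2). The share of all tested probe sets that kept their call in this way was not counted.

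**Figure D1:**
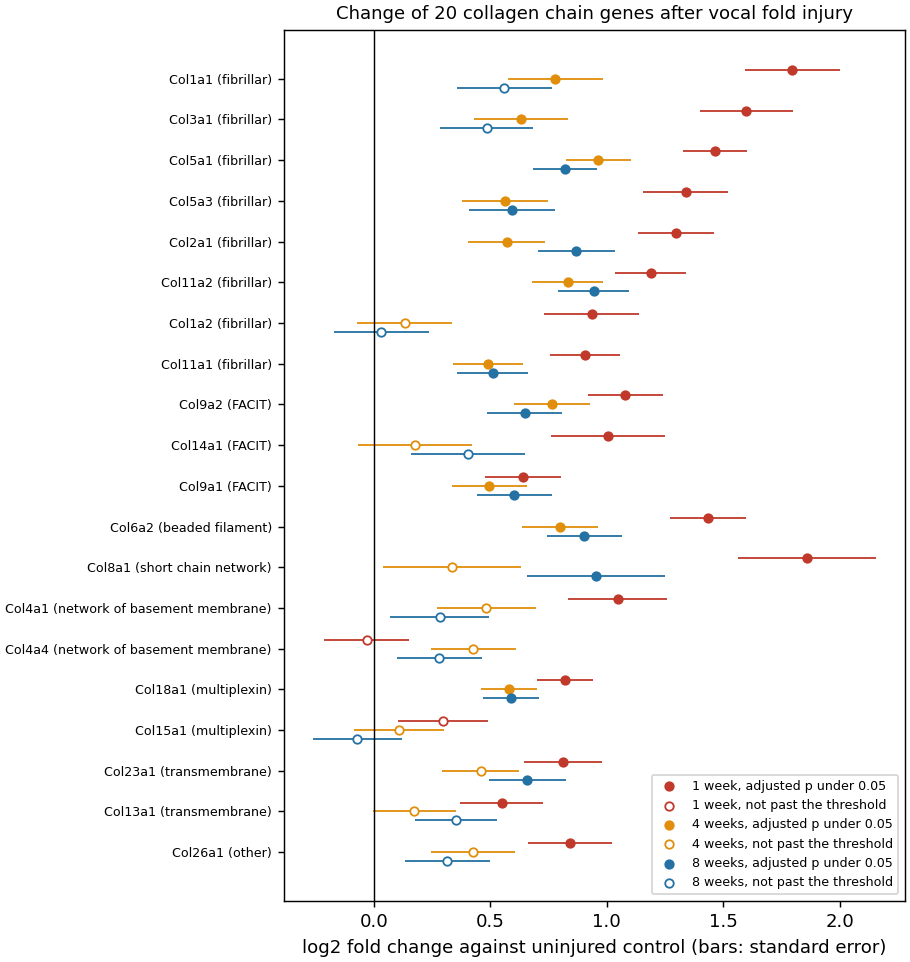
Log2 fold change against uninjured control for the 20 collagen chain genes, ordered by class and then by the change at 1 week. Points are the limma estimates, bars are standard errors, and filled points have an adjusted p under 0.05. The 1-week point lies to the right of the 4-week and 8-week points for every gene but Col4a4.

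A difference in background signal ran along with these counts. The arrays carry 23 background probe sets named by the number of G or C bases in their probes, and those with 16 or more rose after injury as the members did. These 10 sets were higher than in control by 1.02 to 1.68 log2 units at 1 week, 0.82 to 1.37 at 4 weeks and 0.74 to 1.29 at 8 weeks. The 10 sets with 12 or fewer were higher by 0.02 to 0.28, 0.08 to 0.26 and 0.05 to 0.22. At 1 week, only Col8a1 and Col1a1 rose by more than the most changed background set, and at 4 and 8 weeks 0 members did. The base composition of the members' own probes is not in the files used here.

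The brightest background set of each array averaged 5.27 ± 0.27 in control and 6.58 ± 0.38, 6.38 ± 0.10 and 6.39 ± 0.15 at 1, 4 and 8 weeks (SD, n = 5 in each), with no overlap between control and injured arrays. Col11a2, Col14a1, Col1a1, Col1a2, Col3a1 and Col5a1 lay above the brightest background set of the same array in all 20 arrays. Col11a1, Col13a1, Col23a1, Col26a1, Col4a4, Col5a3, Col9a1 and Col9a2 lay below it in all 20. The remaining 6 lay above it in some arrays only. The mean of the 10 G- and C-rich sets was also entered in the fit as a covariate. Then 1 member was called at 1 week (Col8a1, limma adjusted p = 0.0058), 0 at 4 weeks and 0 at 8 weeks. Of all tested probe sets 24, 5 and 3 were then called in either direction, against 3209, 1952 and 1748 without the covariate. That covariate separated control from injured arrays, so its part in the rises and that of the injury cannot be told apart.

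Between the injured groups the 10 G- and C-rich background sets also fell. They changed by -0.31 to -0.12 log2 units from 1 to 4 weeks and by -0.38 to -0.12 from 1 to 8 weeks. The 10 sets with 12 or fewer such bases changed by -0.01 to 0.07 and by -0.06 to 0.03. From 1 to 4 weeks 16 members fell by more than any background set in the estimate, and from 1 to 8 weeks 13 did. The share of all tested probe sets that fell as far was not counted. The part of the background shift in these falls was not tested.

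**Figure D2:**
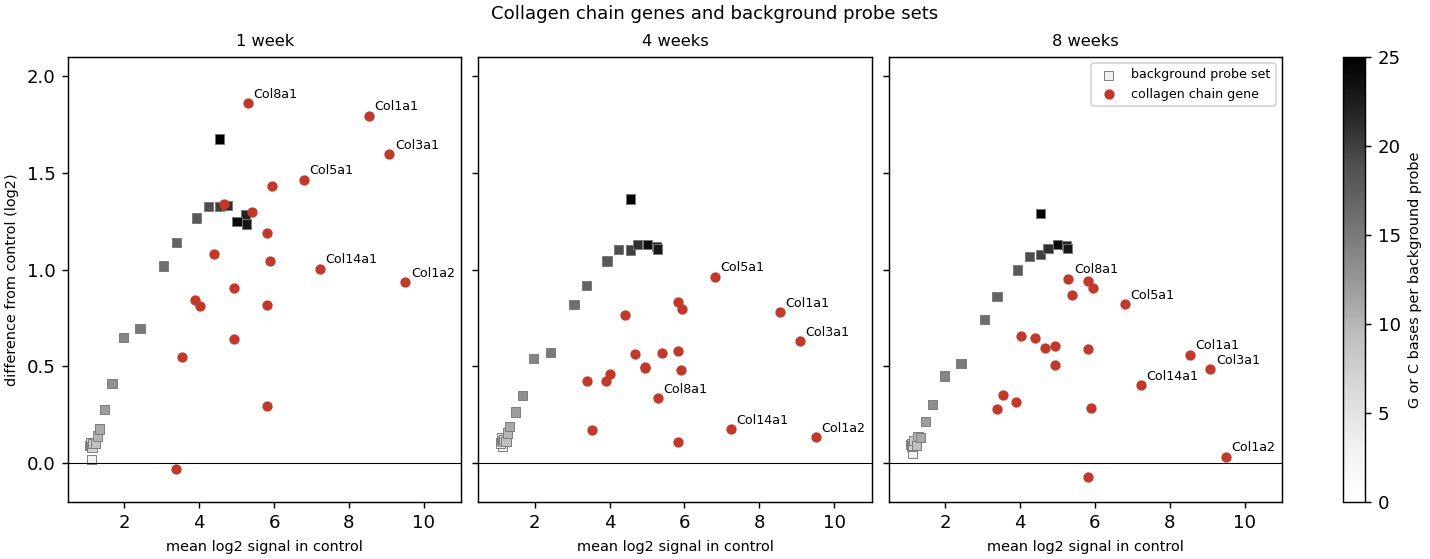
Difference from control in log2 units against the mean log2 signal in control, at 1, 4 and 8 weeks. Red points are the 20 collagen chain genes and squares are the 23 background probe sets, darker for more G or C bases per probe. The squares rise with their base content in each panel, and at 1 week only Col8a1 and Col1a1 lie above all of them.

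Other features of the arrays are given once here. Array medians ran from 4.58 to 4.94 log2 units in control and from 4.83 to 4.92 in the injured groups. The 18 hybridization control probe sets averaged 9.25 ± 0.30 in control (SD, n = 5) and 10.07 to 10.19 in the injured groups. Markers of stratified epithelium (mean of 3 genes, 9.52 to 10.64 in single arrays) and of skeletal muscle (mean of 8 genes, 7.19 to 10.43) were bright in all groups, so that mucosa and muscle were both in the tissue. Of 5 pituitary hormone and lineage genes 3 were higher in control than at each time. Beside them, 10.2%, 5.46% and 4.65% of all tested probe sets were called lower than in control at 1, 4 and 8 weeks. The list means were 5.92 to 8.01 in control arrays and 3.77 to 4.80 in injured arrays. The part of these genes in the changes of the members was not tested.

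Type I collagen, the main fibril of scar, bone and tendon, has the chains Col1a1 and Col1a2. Col1a1 read 8.61, 8.60, 8.21, 8.95 and 8.35 in the 5 controls and 10.32, 10.66, 10.28, 10.20 and 10.26 at 1 week. It read 9.55, 8.47, 9.95, 9.50 and 9.15 at 4 weeks and 9.11, 8.77, 9.10, 9.19 and 9.35 at 8 weeks. All arrays at 1 week were above every other array, while 4-week replicate 2 and 8-week replicate 2 lay within the range of the controls. The rise at 1 week was 1.80 log2 units (standard error 0.20, 3.48-fold, limma adjusted p = 8.3e-06), and at 4 weeks it was 0.78 (standard error 0.20, adjusted p = 0.015). At 8 weeks the difference of 0.56 did not pass (adjusted p = 0.078).

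Col1a2 averaged 9.51 ± 0.37 in control, 10.44 ± 0.19 at 1 week, 9.64 ± 0.53 at 4 weeks and 9.54 ± 0.11 at 8 weeks (SD, n = 5 in each). It rose by 0.93 at 1 week (limma adjusted p = 0.0027), with no overlap. At 8 weeks the difference from control was 0.03, with a 95% confidence interval from -0.39 to 0.46.

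Col3a1, the chain of type III collagen, a fibril of early scar and of compliant tissue, read 9.46, 8.92, 8.42, 9.44 and 9.17 in control and 10.78, 10.90, 10.71, 10.39 and 10.63 at 1 week. At 4 weeks it read 9.85, 9.06, 10.20, 9.85 and 9.61, and at 8 weeks 9.63, 9.26, 9.83, 9.60 and 9.52. The 1-week arrays were again above all others, and at 4 and 8 weeks the groups overlapped with control. Col3a1 rose 3.03-fold at 1 week (1.60 log2 units, standard error 0.20, limma adjusted p = 2.0e-05) and by 0.63 at 4 weeks (standard error 0.20, adjusted p = 0.040). The difference of 0.48 at 8 weeks did not pass (adjusted p = 0.12).

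Markers of fibroblasts, the main source of these fibrils, moved in part with them: Lum, Thy1 and Fap of 6 rose at 1 week, by 1.37, 0.92 and 1.03, while Dcn changed by 0.07 and Pdgfra by 0.16, neither past the threshold. The mean of the 6 ran from 7.55 to 8.02 in control arrays, from 7.82 to 8.65 at 1 week, from 7.75 to 8.23 at 4 weeks and from 7.87 to 8.22 at 8 weeks. Both measured tendon genes, Tnmd and Scx, rose at 1 week as well, by 1.05 and 0.76 (limma adjusted p = 6.5e-04 and 9.7e-04). Their list mean ran from 3.03 to 3.46 in control arrays and from 4.02 to 4.46 at 1 week. It ran from 3.55 to 4.00 at 4 weeks and from 3.51 to 3.94 at 8 weeks. At 1 week Tnmd and Scx averaged 3.66 and 4.77, below the brightest background set, which averaged 6.58. The G- and C-rich background sets rose by 1.02 to 1.68 at that time. Of 4 smooth muscle genes Myh11 fell at 1 week, by 1.08 without overlap (limma adjusted p = 0.0017). The other 3 did not pass at 1 week. Acta2 averaged 7.70 in control and 7.74 at 1 week, Tagln 6.62 and 6.98, and Cnn1 4.69 and 4.06. The list mean ran from 5.90 to 6.86 in control arrays and from 5.60 to 6.43 at 1 week. Of 4 endothelial genes Kdr was lower at each time, by 0.74, 0.54 and 0.62 (limma adjusted p = 0.0034, 0.037 and 0.020). Cdh5, Pecam1 and Tie1 passed at no time, and lay below control at 1 week and above it at 4 weeks. Their means were 7.96, 5.87 and 5.40 in control, 7.83, 5.52 and 5.31 at 1 week, and 8.12, 6.03 and 5.76 at 4 weeks. At 8 weeks they were 7.94, 5.95 and 5.54. The endothelial list mean ran from 6.15 to 6.84 in control arrays and from 5.93 to 6.89 in injured arrays. Of 4 macrophage genes 0 passed at 1 week, Cd163 and Adgre1 rose at 4 weeks and Cd163 at 8 weeks, and the list mean ran from 5.76 to 6.94 in control arrays and from 6.40 to 8.08 in injured arrays. The counts of these markers stand beside the shares of all tested probe sets called. At 1, 4 and 8 weeks 11.2%, 7.52% and 6.96% were called higher and 10.2%, 5.46% and 4.65% lower. The part of cell numbers in the collagen changes was not tested.

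Col5a1 encodes the main chain of type V collagen, which starts fibrils and limits their width. It read 6.90, 6.81, 6.52, 6.91 and 6.89 in control and 8.13, 8.53, 8.13, 8.30 and 8.25 at 1 week. It read 7.56, 7.42, 7.96, 8.03 and 7.89 at 4 weeks and 7.57, 7.61, 7.48, 7.59 and 7.89 at 8 weeks. Every injured array exceeded every control, and every 1-week array exceeded every later one. Its rises were 1.47 at 1 week (2.76-fold, limma adjusted p = 1.7e-06, the smallest of the members), 0.96 at 4 weeks (adjusted p = 2.2e-04) and 0.82 at 8 weeks (adjusted p = 8.8e-04), each with a standard error of 0.14. Col5a3, another type V chain, averaged 4.67 ± 0.25, 6.01 ± 0.39, 5.23 ± 0.25 and 5.26 ± 0.28 in control and at 1, 4 and 8 weeks (SD, n = 5 in each). It rose by 1.34, 0.56 and 0.59 (limma adjusted p = 5.1e-05, 0.046 and 0.039), and its groups overlapped with control at 4 and 8 weeks. The calls of Col5a3 at 4 and 8 weeks were lost in 18 and 12 alternative settings.

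Col2a1, Col11a1, Col11a2, Col9a1 and Col9a2 are chains of types II, XI and IX, which together build the fibrils of cartilage, though Col11a1 and Col11a2 are also made in other tissues. Col2a1 read 5.61, 5.13, 5.27, 5.43 and 5.57 in control and 6.48, 7.10, 6.37, 7.19 and 6.35 at 1 week. It read 5.78, 5.96, 6.12, 6.0 and 6.0 at 4 weeks and 6.28, 5.98, 6.22, 6.42 and 6.44 at 8 weeks. All injured arrays were above all controls, and 1-week replicates 2 and 4 stood highest, as they did for Col11a2 and Col9a2. In these arrays the brightest background set read 6.76 and 7.14, the highest of all arrays. Col2a1 lay above that set of the same array in 4 control arrays, 4 at 1 week, 0 at 4 weeks and 1 at 8 weeks. Col2a1 rose by 1.30 at 1 week (standard error 0.16, 2.46-fold, limma adjusted p = 2.3e-05), 0.57 at 4 weeks (adjusted p = 0.025) and 0.87 at 8 weeks (adjusted p = 0.0023). With the G- and C-rich background sets as a covariate its estimate turned negative at 4 and 8 weeks (-0.36 and -0.036), though not at 1 week. The part of the background in these rises and that of the injury cannot be told apart.

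Col11a2 read 5.79, 5.61, 5.64, 6.08 and 5.99 in control and 6.87, 7.46, 6.63, 7.18 and 6.93 at 1 week. It read 6.44, 6.57, 7.0, 6.62 and 6.65 at 4 weeks and 6.84, 6.80, 6.76, 6.55 and 6.87 at 8 weeks. The controls lay below all 15 injured arrays, which overlapped with one another. Its rises of 1.19, 0.83 and 0.94 (standard error 0.15 for each) all passed (limma adjusted p = 2.4e-05, 0.0014 and 6.4e-04). Col11a1 averaged 4.94 ± 0.16 in control and 5.85 ± 0.25, 5.43 ± 0.14 and 5.45 ± 0.31 at 1, 4 and 8 weeks (SD, n = 5 in each), with rises of 0.91, 0.49 and 0.51 (limma adjusted p = 3.4e-04, 0.037 and 0.032).

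Col9a2 read 4.10, 4.60, 4.48, 4.23 and 4.59 in control and 5.24, 5.89, 5.14, 5.82 and 5.30 at 1 week. It read 5.04, 4.99, 5.26, 5.10 and 5.43 at 4 weeks and 5.22, 5.0, 5.20, 4.71 and 5.10 at 8 weeks. No injured array reached down to the controls, the nearest being 8-week replicate 4. Col9a2 rose by 1.08, 0.76 and 0.65 (standard error 0.16 for each, limma adjusted p = 1.3e-04, 0.0041 and 0.013). Col9a1 averaged 4.94 ± 0.22, 5.58 ± 0.22, 5.44 ± 0.19 and 5.55 ± 0.34 in the same order (SD, n = 5 in each). It rose by 0.64, 0.50 and 0.60 (limma adjusted p = 0.0072, 0.046 and 0.019). The calls of Col9a1 at 4 and 8 weeks were lost in 17 and 5 alternative settings.

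Other cartilage genes moved less evenly. Of 7 measured, 2 rose at 1 week (Cnmd by 1.33 and Acan by 0.96), 0 at 4 weeks and the same 2 at 8 weeks (by 1.57 and 1.04), beside the 11.2%, 7.52% and 6.96% of all tested probe sets called higher at these times. The mean of the 7 ran from 3.80 to 5.47 in control arrays, where replicates 2 and 5 were lowest, from 5.31 to 5.50 at 1 week, from 4.49 to 4.96 at 4 weeks and from 5.10 to 6.16 at 8 weeks. At 4 weeks Col9a1 overlapped with control, while Col2a1, Col11a1, Col11a2 and Col9a2 did not. The part of laryngeal cartilage in the dissected tissue was not tested.

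**Figure D3:**
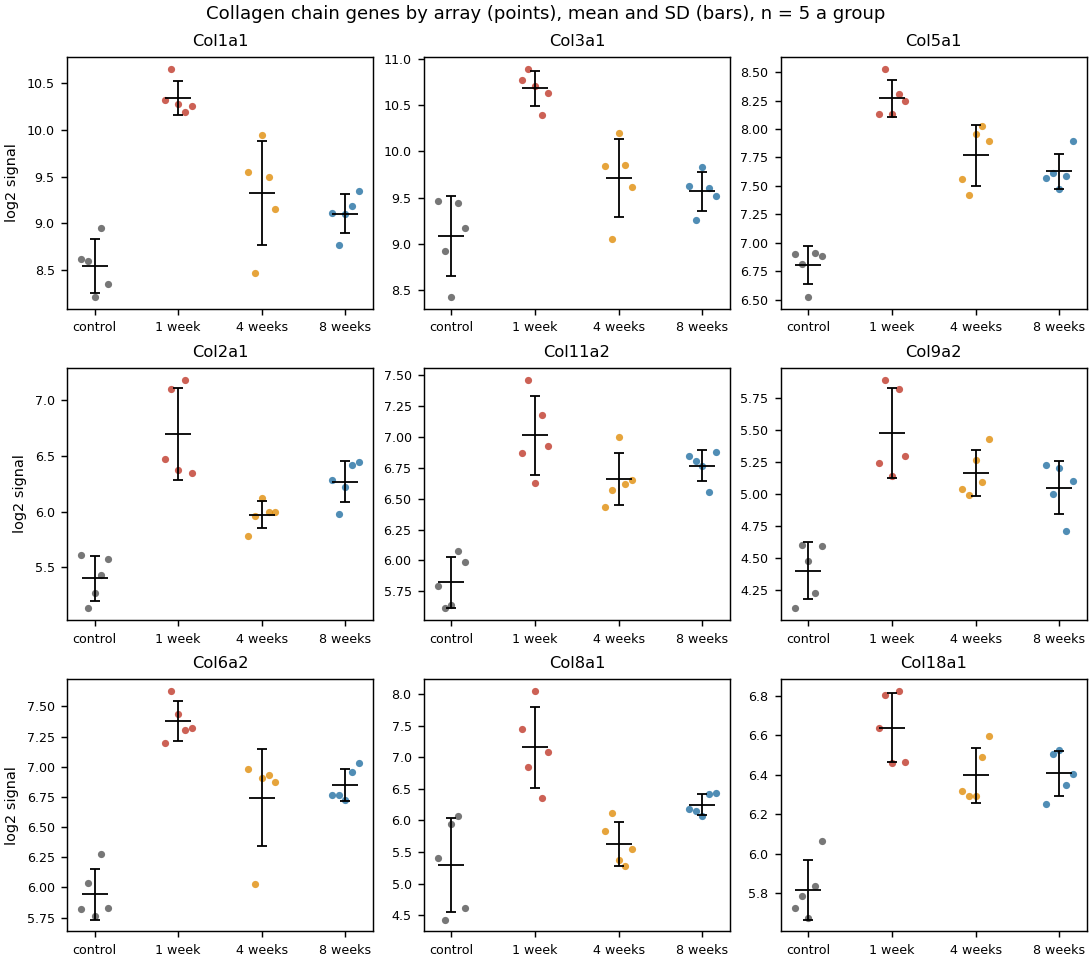
Log2 signal of 9 collagen chain genes in each array, in control and at 1, 4 and 8 weeks after injury. Points are animals and bars give the mean and SD of 5 animals; each panel has its own scale, which does not start at 0. The 1-week points of all 9 genes lie above all control points, and for Col6a2 the 4-week replicate 2 at 6.03 lies among the controls.

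Col14a1, a FACIT chain that binds the surface of fibrils, averaged 7.23 ± 0.37 in control, 8.23 ± 0.39 at 1 week, 7.41 ± 0.58 at 4 weeks and 7.63 ± 0.30 at 8 weeks (SD, n = 5 in each). It rose by 1.01 at 1 week (limma adjusted p = 0.0056), where replicate 4 at 7.55 lay among the controls and the other 4 above them. At 4 and 8 weeks its differences of 0.18 and 0.40 did not pass.

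Col6a2, a chain of the type VI microfibrils that link cells to fibrils, read 5.82, 6.03, 5.77, 6.27 and 5.83 in control and 7.20, 7.63, 7.44, 7.30 and 7.32 at 1 week. It read 6.98, 6.03, 6.90, 6.93 and 6.87 at 4 weeks and 6.76, 6.77, 6.72, 6.96 and 7.03 at 8 weeks. Apart from 4-week replicate 2, all injured arrays were above all controls, and the 1-week arrays were the highest. The gene rose by 1.43 at 1 week (2.70-fold, limma adjusted p = 8.3e-06), 0.80 at 4 weeks (adjusted p = 0.0031) and 0.90 at 8 weeks (adjusted p = 0.0015), with a standard error of 0.16 for each.

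Col8a1, a short chain of type VIII collagen, known from vessel walls and the basement membrane of the cornea, read 5.41, 4.43, 5.95, 6.07 and 4.62 in control and 7.44, 6.85, 8.05, 6.36 and 7.08 at 1 week. It read 5.83, 6.12, 5.37, 5.28 and 5.55 at 4 weeks and 6.18, 6.15, 6.07, 6.42 and 6.43 at 8 weeks. The control arrays were spread from 4.43 to 6.07, the 4-week arrays fell within or next to that spread, and the 8-week arrays were at or just above its top. The rise at 1 week, 1.86 (standard error 0.30, 3.63-fold, limma adjusted p = 2.1e-04), was the largest of the members. The difference was 0.34 at 4 weeks, which did not pass (limma adjusted p = 0.49), and 0.95 at 8 weeks, which did (limma adjusted p = 0.040). The call at 8 weeks was lost in 15 alternative settings, some of them with a single array left out.

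Of the basement membrane chains, 1 passed at 1 week. Col4a1, part of the type IV network of nearly all basement membranes, averaged 5.90 ± 0.53 in control, 6.95 ± 0.33 at 1 week, 6.39 ± 0.31 at 4 weeks and 6.19 ± 0.16 at 8 weeks (SD, n = 5 in each), and rose by 1.05 at 1 week without overlap (limma adjusted p = 0.0016). Col4a4, a chain of the type IV network of kidney, cochlea and other specialised membranes, averaged 3.39 ± 0.40, 3.36 ± 0.15, 3.82 ± 0.25 and 3.67 ± 0.33 (SD, n = 5 in each). Its difference at 1 week was -0.03, with a 95% confidence interval from -0.41 to 0.35, and all of its values lay below the brightest background set. Whether the changes of the 2 chains differed was not tested.

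The multiplexins are basement membrane collagens that release the fragments endostatin and restin. Col18a1 read 5.73, 5.79, 5.67, 5.84 and 6.06 in control and 6.64, 6.80, 6.46, 6.83 and 6.47 at 1 week. It read 6.32, 6.29, 6.29, 6.49 and 6.60 at 4 weeks and 6.25, 6.51, 6.53, 6.35 and 6.40 at 8 weeks, so that every injured array was above every control. The rises were 0.82, 0.58 and 0.59 (standard error 0.12 for each, limma adjusted p = 1.0e-04, 0.0036 and 0.0037). Col15a1 averaged 5.82 ± 0.52, 6.12 ± 0.26, 5.93 ± 0.19 and 5.75 ± 0.16 (SD, n = 5 in each) and passed at no time. Its difference at 1 week was 0.30, with a 95% confidence interval from -0.10 to 0.69, and whether it differed from that of Col18a1 was not tested.

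Of the transmembrane chains, which sit in the cell membrane and shed a collagen ectodomain, Col23a1 averaged 4.02 ± 0.19, 4.83 ± 0.36, 4.48 ± 0.22 and 4.68 ± 0.24 (SD, n = 5 in each). It rose by 0.81 at 1 week and 0.66 at 8 weeks (limma adjusted p = 0.0017 and 0.013), and the difference of 0.46 at 4 weeks did not pass. Col13a1, known from the neuromuscular junction and other adhesion sites, averaged 3.53 ± 0.39, 4.08 ± 0.28, 3.71 ± 0.22 and 3.89 ± 0.21 (SD, n = 5 in each). It passed at 1 week only, by 0.55 with overlapping groups (limma adjusted p = 0.030), and was the 1 member whose call at that time was lost with single arrays left out, with adjusted p-values up to 0.099. Col26a1 averaged 3.90 ± 0.26, 4.74 ± 0.29, 4.32 ± 0.17 and 4.22 ± 0.41 (SD, n = 5 in each) and rose by 0.84 at 1 week (limma adjusted p = 0.0025).

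From 1 to 4 weeks, Col8a1 and Col1a1 fell and no member rose, against 0.126% of all tested probe sets called lower and 0% called higher. Col8a1 fell by 1.53 log2 units (standard error 0.30, limma adjusted p = 0.036) and Col1a1 by 1.02 (standard error 0.20, adjusted p = 0.047), both without overlap. Col3a1 was next, with a difference of -0.97 and an adjusted p of 0.051. The members' median difference was -0.46, beside 0.02 over all tested probe sets, and 19 of 20 estimates were negative. For 7 members all 4-week arrays were below all 1-week arrays, which 0.897% of all tested probe sets were, and Col4a4 alone lay the other way, against 1.03%. Both calls depended on single arrays. The count was 0 without control replicate 1 or 1-week replicate 1, 2 or 3. It was also 0 without 4-week replicate 1, 4 or 5, or 8-week replicate 4. It was 1 without control replicate 2, 4-week replicate 2, or 8-week replicate 1, 3 or 5. Of all tested probe sets 6 to 15 were called in the fits with 0 members and 10 to 17 in those with 1. With all arrays 19 were called.

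From 1 to 8 weeks, 3 fibrillar chains fell and no member rose, against 0.199% of all tested probe sets called lower and 0.0332% called higher. The falls were 1.24 for Col1a1 (standard error 0.20, limma adjusted p = 0.010), 1.11 for Col3a1 (standard error 0.20, adjusted p = 0.015) and 0.64 for Col5a1 (standard error 0.14, adjusted p = 0.0498). The median difference over the members was -0.48, and 6 did not overlap in this direction, against 1.05% of all tested probe sets. Without 8-week replicate 2 the count was 0, with Col1a1 at a limma adjusted p of 0.051, and without 1-week replicate 1, 2 or 3 it was 1. Of all tested probe sets 6, 12, 18 and 11 were called in these fits, in that order, against 35 with all arrays. Over all alternative settings the call was lost in 24 for Col5a1, in 4 for Col3a1 and in 1 for Col1a1.

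From 4 to 8 weeks 0 members were called, and 0% of all tested probe sets were called in either direction. At an unadjusted p under 0.05 there were 377 probe sets, of which 1 was a member, Col8a1, with a difference of 0.62 and a 95% confidence interval from 0.00 to 1.23.

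The estimate left at 8 weeks, as a share of the rise at 1 week, was lowest among the 18 members called at 1 week for Col1a2 (3.46%), Col4a1 (27.1%), Col3a1 (30.3%) and Col1a1 (31.2%), and highest for Col9a1 (94.3%), Col23a1 (81.1%), Col11a2 (79.4%) and Col18a1 (71.9%). At 4 weeks the lowest shares were those of Col1a2 (14.2%), Col14a1 (17.5%) and Col8a1 (18.0%). These shares use the same control and 1-week arrays and are given as a description. The G- and C-rich background sets also stayed above control, by 1.02 to 1.68 at 1 week and 0.74 to 1.29 at 8 weeks. Their part in the shares was not tested. Col9a1 and Col23a1 lay below the brightest background set in every array, while Col1a1, Col1a2 and Col3a1 lay above it in all 20.

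A list of chain pairs that share a trimer held 3 pairs with both members measured, from types I, IX and XI. Type IX has another chain, Col9a3, that was not analysed here, Col2a1 encodes another chain of type XI, and Col5a1 with Col5a3 and Col4a1 with Col4a4 were not in the list. The difference between the log2 signals of a pair within an array was compared between groups with two-sided exact permutation tests of 5 arrays against 5, over 6 comparisons. The smallest p such a test allows is 0.0079, and the 18 p-values were adjusted together. For Col1a1 minus Col1a2, 2 chains that join 2 to 1 in the type I helix, the difference was -1.27, -0.91, -0.75, -0.85 and -1.04 in control and -0.20, 0.00, -0.19, 0.07 and -0.20 at 1 week. It was -0.34, -0.41, -0.29, -0.32 and -0.23 at 4 weeks and -0.40, -0.60, -0.57, -0.42 and -0.20 at 8 weeks. All 15 injured arrays were above all controls, so Col1a1 had gained on Col1a2 by 0.86, 0.65 and 0.53 log2 units at 1, 4 and 8 weeks (exact permutation test, adjusted p = 0.029 each). It then fell back by 0.22 from 1 to 4 weeks (exact permutation test, adjusted p = 0.029) and by 0.33 from 1 to 8 weeks (exact permutation test, adjusted p = 0.041). Without 4-week replicate 2 the former adjusted p was 0.054, and without 1-week replicate 1, 2, 3 or 4 the latter was 0.054 to 0.061.

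For Col11a1 minus Col11a2 the mean went from -0.88 ± 0.09 in control to -1.16 ± 0.20, -1.22 ± 0.16 and -1.32 ± 0.31 at 1, 4 and 8 weeks. The changes of -0.34 at 4 weeks and -0.43 at 8 weeks passed (exact permutation test, adjusted p = 0.029 and 0.041), and the change of -0.28 at 1 week did not (exact permutation test, adjusted p = 0.054). Without control replicate 1, 2, 3 or 4 the change at 8 weeks no longer passed (exact permutation test, adjusted p from 0.061 to 0.071). Col9a1 minus Col9a2 averaged 0.54 ± 0.37, 0.10 ± 0.28, 0.28 ± 0.22 and 0.50 ± 0.22, and none of its 6 comparisons passed (exact permutation test, adjusted p from 0.095 to 0.83). Probes of the 2 chains of a pair can differ in base content, and the part of the background difference between control and injured arrays in these ratios was not tested.

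**Figure D4:**
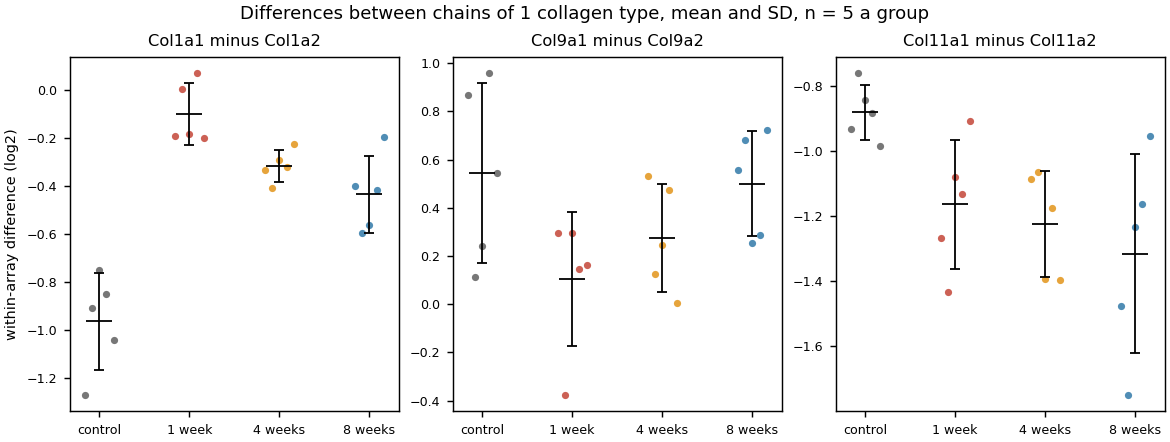
Difference between the log2 signals of 2 chains within each array, for types I, IX and XI, in control and at 1, 4 and 8 weeks. Points are animals, bars give the mean and SD of 5 animals, and each panel has its own scale. Only for Col1a1 minus Col1a2 do the control points lie apart from all injured points.

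Genes that fold, process, link or break down collagen were taken from 5 lists, whose counts stand beside the 11.2% (1 week), 7.52% (4 weeks) and 6.96% (8 weeks) of all tested probe sets called higher, and the 10.2%, 5.46% and 4.65% called lower. Of 14 measured genes of chain folding and modification, 5 rose and 1 fell at 1 week, and 2 rose and 1 fell at both 4 and 8 weeks. Serpinh1, the collagen chaperone of the endoplasmic reticulum, was higher by 1.58, 1.21 and 0.93 at 1, 4 and 8 weeks (limma adjusted p = 8.3e-06, 3.0e-04 and 0.0024). Plod2, a lysyl hydroxylase that marks the collagen ends for stable crosslinks, rose by 1.52 at 1 week and fell by 1.18 from 1 to 8 weeks (limma adjusted p = 1.8e-04 and 0.035). Fkbp10, a prolyl isomerase that helps collagen chains fold, rose by 1.03 at 1 week (limma adjusted p = 9.0e-04). The 1 gene that fell, P3h2, a prolyl 3-hydroxylase known for acting on basement membrane collagen, was lower by 0.94, 0.86 and 0.71.

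Of 4 crosslinking enzymes 3 rose at 1 week, with Loxl2 at 1.56, Loxl1 at 1.32 and Loxl3 at 0.66, and Loxl2 and Loxl1 fell from 1 to 4 weeks by 1.12 and 0.91 (limma adjusted p = 0.010 and 0.024). Of 4 propeptide processing genes 2 rose at 1 week, Pcolce, which enhances the cutting of the C propeptide, by 0.88 and Bmp1, which cuts it, by 0.56. Of 9 genes of collagen cleavage 3 rose and 1 fell at 1 week. Ctsk, the collagen-degrading cathepsin, rose by 1.57 and fell again by 0.95 from 1 to 4 weeks (limma adjusted p = 1.6e-05 and 0.049). Mmp2, a gelatinase, and Mmp14, a membrane-bound collagenase that activates it, rose at 1 week by 0.87 and 0.96 (limma adjusted p = 0.0020 and 0.0031). Timp3, an inhibitor of matrix metalloproteinases, was the 1 gene that fell, by 0.62 (limma adjusted p = 0.022). Of 7 collagen receptors and uptake genes 1 rose at 1 week, the uptake receptor Mrc2, by 0.69.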

How the data were processed

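Vocal fold RNA of 20 rats was measured on Affymetrix arrays. The authors deposited log2 signals from robust multichip analysis (RMA), which removes background array by array and then summarises each probe set from its probes. The sources differ on the array: by the methods it was Clariom S with cDNA targets, processed in TAC 4.0.1 under global scaling, and by the labels it was Clariom D with cRNA, for which Expression Console is noted. No detection call per probe set was available. A single gene name was given to 15049 of the 24871 probe sets, and 9822 were unnamed.

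Groups came from the sample labels. All 15049 named probe sets entered 1 limma fit of the 4 groups (lmFit, eBayes; limma 3.58.1, R 4.3.3), without filter, covariate or block, and p-values were adjusted by Benjamini-Hochberg within each of 6 comparisons. Chain pairs were compared by exact permutation of 252 assignments in Python 3.11.15 with pandas 2.3.3, and figures were drawn with matplotlib 3.10.9. Both tests were checked on simulated data. Within groups arrays correlated from 0.949 to 0.986, and 0 pairs held identical values.

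All 20 array values are given for the 6 members with the smallest adjusted p among those past the threshold in each comparison, and the others by group mean. Up to 3 genes with the smallest adjusted p stand for each pathway list. P3h2 and Timp3, the only lower genes of their lists at 1 week, and single cell type markers were named after their values were seen. The members, lists and alternatives were chosen with earlier results of these data known. Alternatives covered normalization, the variance model, array weights, filters, a fold threshold, the replicate number as a block, 2 covariates and leaving out each array. The covariate from background probe sets, and leaving out arrays for the F statistic and the chain pairs, were added after seeing the data.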

Additional observations from a re-analysis of the deposited data

Results flagged for a closer look

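In groups of 5 arrays, 7 of 80 combinations of member and group held an array set far apart from the other 4, and chance alone marks about 5% of such groups. At 1 week, replicate 4 read 7.55 for Col14a1 (group median 8.4), 3.10 for Col4a4 (median 3.41) and 5.97 for Col9a1 (median 5.52), and replicate 2 read 10.66 for Col1a1 (median 10.28). Control replicate 3 read 6.52 for Col5a1 (median 6.89), 4-week replicate 2 read 6.03 for Col6a2 (median 6.90), and 8-week replicate 4 read 4.25 for Col23a1 (median 4.78).

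The rise over control differed between times for 4 members by the limma comparison of the injured groups themselves. Col8a1 differed by -1.53 log2 units from 1 to 4 weeks (adjusted p = 0.036) and Col1a1 by -1.02 (adjusted p = 0.047). From 1 to 8 weeks Col1a1 differed by -1.24 (limma adjusted p = 0.010), Col3a1 by -1.11 (adjusted p = 0.015) and Col5a1 by -0.64 (adjusted p = 0.0498). These 3 calls were lost in 1, 4 and 24 alternative settings, in that order. The calls from 1 to 4 weeks were lost in 10 for Col8a1 and in 20 for Col1a1. Col1a1 minus Col1a2 also differed, by -0.22 from 1 to 4 weeks and by -0.33 from 1 to 8 weeks (exact permutation test, adjusted p = 0.029 and 0.041).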

How the results depend on the processing

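With the hybridization controls as a covariate 1, 0 and 0 members were called at 1, 4 and 8 weeks against control. From 1 to 4 and from 1 to 8 weeks 1 and 2 members fell. Of all tested probe sets 82, 10 and 9 were called against control, and 17 and 25 between those injured groups. The hybridization controls averaged at most 9.59 in a control array and at least 9.94 in an injured array. Their part in the rises and that of the injury cannot be told apart. With the G- and C-rich background sets as a covariate, added after seeing the data, the counts of members were the same. Of all tested probe sets 24, 5 and 3 were called against control, and 31 and 34 between those injured groups. Col8a1 at 1 week stood at 3.63 log2 units in place of 1.86. A log2 fold change of at least 1 left 11, 0 and 0 members against control, beside 433, 292 and 249 of all tested probe sets. A fit of only the groups compared called 6 members at 4 weeks and 1 from 1 to 4 weeks, beside 956 and 17 of all tested probe sets. Testing all probe sets other than controls called 1 member from 1 to 4 weeks, beside 21 probe sets in all. From 1 to 8 weeks 5 members were called under quantile normalization, under array weights, and without control replicate 3 and 4-week replicate 2 together. Of all tested probe sets 57, 90 and 61 were called in these settings, against 35 in the main fit. In all 13 settings with every array, or without those 2, 0 members were called from 4 to 8 weeks.

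Arrays were not taken as paired by replicate number. Of 30 same-numbered correlations 6 were above 0.1 (from -0.27 to 0.32), and 6 of 20 arrays correlated best with their own number. These values cannot exclude a pairing. With the number as a replicate block the counts of members against control were 18, 8 and 9. In that fit 0 fell from 1 to 4 weeks, 2 from 1 to 8 weeks and 0 from 4 to 8 weeks. Of all tested probe sets it called 2994, 1676 and 1502 against control, and 18, 18 and 0 between the injured groups.

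Leaving out 1 array in turn gave 17 to 18, 6 to 12 and 7 to 12 calls against control, 0 to 3 from 1 to 4 weeks, 0 to 4 from 1 to 8 weeks, and 16 to 18 for the F statistic. Col1a1 minus Col1a2 then changed by 0.79 to 0.92, 0.57 to 0.70 and 0.45 to 0.58 against control, by -0.24 to -0.17 and -0.39 to -0.29 from 1 to 4 and 1 to 8 weeks, and by -0.18 to -0.078 from 4 to 8 weeks. Col11a1 minus Col11a2 changed by -0.35 to -0.22, -0.38 to -0.30 and -0.52 to -0.33 against control, -0.13 to 0.0047 from 1 to 4 weeks, -0.24 to -0.04 from 1 to 8 weeks, and -0.18 to 0.016 from 4 to 8 weeks. Its change at 8 weeks no longer passed without control replicate 1, 2, 3 or 4. Col9a1 minus Col9a2 changed by -0.55 to -0.32, -0.38 to -0.16 and -0.15 to 0.059 against control, 0.05 to 0.24 from 1 to 4 weeks, 0.28 to 0.46 from 1 to 8 weeks, and 0.16 to 0.29 from 4 to 8 weeks. Under quantile normalization Col1a1 minus Col1a2 missed the threshold from 1 to 8 weeks (-0.31) and Col11a1 minus Col11a2 passed it at 1 week (-0.32).

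Estimates that changed sign were mostly those that passed no threshold. With the hybridization covariate they were Col15a1 (-0.51) and Col9a1 (-0.019) at 1 week, Col11a1 (-0.094), Col1a2 (-0.20), Col15a1 (-0.62), Col2a1 (-0.037), Col9a1 (-0.095) and Col4a1 (-0.085) at 4 weeks, Col11a1 (-0.055), Col1a2 (-0.29), Col26a1 (-0.081) and Col4a1 (-0.27) at 8 weeks, and Col9a1 (0.051) from 1 to 8 weeks. With the background covariate they were Col15a1 (-0.66), Col9a1 (-0.072) and Col4a4 (0.017) at 1 week, Col11a1 (-0.044), Col15a1 (-0.70), Col2a1 (-0.36), Col9a1 (-0.10), Col23a1 (-0.20) and Col26a1 (-0.25) at 4 weeks, Col11a1 (-0.0087), Col2a1 (-0.036) and Col26a1 (-0.34) at 8 weeks, and Col9a1 (0.093) from 1 to 8 weeks. Of these, Col9a1 at 1 and 4 weeks, Col11a1 and Col2a1 had passed without a covariate. Col1a2 at 8 weeks was -0.060 under quantile normalization, -0.018 under median centring, -0.11 under array weights and -0.11 without control replicate 3 and 4-week replicate 2, where Col15a1 at 4 weeks was -0.025, and Col9a1 from 1 to 8 weeks was 0.025 under array weights.

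With single arrays left out, estimates on both sides of 0 came for Col4a4 at 1 week (-0.15 to 0.11), Col1a2 (-0.018 to 0.32) and Col15a1 (-0.097 to 0.26) at 4 weeks, Col1a2 (-0.11 to 0.13) and Col15a1 (-0.28 to 0.083) at 8 weeks, and Col9a1 from 1 to 8 weeks (-0.11 to 0.10). No called member changed sign in these fits. Signal over background limits what these arrays show: 8 members lay below the brightest background set throughout. The cause of these changes was not tested.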
